A study of Homo sapiens with 12 samples.

Results

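The regions described here are stretches of chromatin away from gene starts that lost both the histone variant H2A.Z and its acetylated form, H2A.Zac, when the TIP60 complex could no longer hold its TRRAP subunit. H2A.Z is a variant of histone H2A that is placed in nucleosomes next to active promoters and at enhancers, the distal elements that transcription factors bind to raise the activity of genes on the same chromosome. TIP60 is a coactivator complex that both exchanges H2A for H2A.Z, through its EP400 subunit, and acetylates H2A.Z and other histones, through the acetyltransferase KAT5. TRRAP is a large subunit without enzymatic activity of its own that transcription factors such as MYC and E2F contact, and the study asked where H2A.Z and H2A.Zac go when TRRAP is detached.

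The cells were K562, a line from a human chronic myeloid leukemia with erythroid and megakaryocytic features, and their endogenous EP400 carries a homozygous dTAG degron. All cells, of both lines, were treated with 500 nM dTAGV-1 for 24 h, which removes the endogenous protein, and they carried an EP400 transgene at the AAVS1 locus that encodes either wild-type EP400 (WT) or EP400 without the SANT and HD domains that bind TRRAP (ΔTRRAP). Each line was 1 clone, so differences between clones and the effect of the deletion cannot be told apart. The 12 ChIP-seq libraries were 2 biological replicates each of input, H2A.Z and H2A.Zac in both lines. The authors merged the replicates, compared the lines and deposited, for each mark, lists of regions that were lost in ΔTRRAP (higher in WT), gained in ΔTRRAP or unchanged. The only value of a region is the log10 likelihood ratio between the lines, here called the ratio, which grows with depth, signal and width as well as with the size of the change and is not a fold change. No region has a value per replicate and the depth is unknown, so no spread between replicates and no test of a difference can be given. Shares are printed with their Wilson 95% intervals, which hold counting error alone and treat neighboring regions as independent.

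A region was included when it was in the list of lost H2A.Zac regions, lay outside the 2-kb window centered on every gene TSS, and had at least 25% of its length covered by lost H2A.Z regions. The regions were thus chosen by the ratio of both marks, and nothing about the ratios below is a test. There were 5432 such regions among 94586 H2A.Zac regions, 62648 of them TSS-distal, and among 158028 regions in all 6 lists. They covered 6.25 Mb. By the cutoff of 3 on the ratio, 25.9% of all H2A.Zac regions were lost and 26.3% gained, 19.8% of all H2A.Z regions were lost and 14.1% gained, and 30.6% of the TSS-distal H2A.Zac regions were lost. Of the 19179 TSS-distal lost H2A.Zac regions, the 5432 made up 28.3% (27.7 to 29.0%). This share depends on the rule. It was 20.6% with 50% of the length covered and 9.60% with ratios of at least 10 in both marks. Of the other lost regions, 4241 lay over unchanged H2A.Z, 8927 touched no H2A.Z region of any class, and 579 were covered in part. The 5432 regions are set beside 2812 TSS-distal regions that gained both marks and 14815 that were unchanged in both, defined with the same overlap and the same TSS window. The cell type on the labels is lymphoblast. An H2A.Zac region of some class lay over the TSS of 9 of 11 erythroid and megakaryocytic marker genes and of 8 of 11 B and T lymphoid marker genes. The presence of a region thus did not separate the lists. H2A.Zac was lost and not gained there at 6 of the 11 lymphoid and 0 of the 11 erythroid and megakaryocytic genes, against 12.6% of all protein-coding genes, and gained and not lost at 1 and 4, against 30.4%. With 11 genes a list these counts are a description, and the name K562 is kept from the labels.

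The DNA of the regions is shown before their values because several results below turn on 4 short words in it. The words were sought on both strands in the 300 bp around the middle of the stretch shared by both marks: CACGTG, the E-box that MYC and MAX bind; TGATGCAA, which joins a site of ATF4 to a site of its partner C/EBP, factors of the amino acid and stress response; AGATAA or TGATAA, the site of GATA factors, which direct erythroid and megakaryocytic genes; and TGANTCA, the site of AP-1, the FOS and JUN dimer induced by growth signals. The first sequence is the middle of the region nearest to ID1, which has the highest H2A.Z ratio. It holds none of the 4 words and has a GC content of 76.7%. All sequences are the forward strand of hg38, 5′ to 3′.
ID1, chr20:31587894-31588193: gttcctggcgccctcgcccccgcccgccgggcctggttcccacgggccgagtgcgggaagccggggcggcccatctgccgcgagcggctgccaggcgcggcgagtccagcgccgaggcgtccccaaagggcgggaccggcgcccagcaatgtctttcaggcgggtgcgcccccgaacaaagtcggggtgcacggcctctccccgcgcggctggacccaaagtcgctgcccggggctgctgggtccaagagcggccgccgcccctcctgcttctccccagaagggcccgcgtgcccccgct

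The next 3 sequences are 100 bp around an E-box, capitals marking CACGTG. The first 2 are from the E-box regions of highest ratio and the third is from the region near TFRC, the transferrin receptor gene, which has the highest ratio of those with an E-box near genes of the lists described below.
ADGRD1, chr12:130920369-130920468: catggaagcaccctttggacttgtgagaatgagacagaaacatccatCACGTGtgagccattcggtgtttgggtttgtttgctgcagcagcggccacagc
CAMK2N1, chr1:20494414-20494513: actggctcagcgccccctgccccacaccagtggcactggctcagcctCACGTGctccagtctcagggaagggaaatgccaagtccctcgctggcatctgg
TFRC, chr3:196123052-196123151: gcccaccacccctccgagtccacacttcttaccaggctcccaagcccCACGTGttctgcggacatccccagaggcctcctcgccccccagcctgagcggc

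The last 4 sequences hold the other words, in capitals. Those near GDAP1L1 and in an intron of ABL1 carry TGATGCAA, on the forward strand in the first and on the reverse strand, as TTGCATCA, in the second. The region within RUNX1 carries the AP-1 word, and the region near CRKL the GATA word on the reverse strand.
GDAP1L1, chr20:44234736-44234835: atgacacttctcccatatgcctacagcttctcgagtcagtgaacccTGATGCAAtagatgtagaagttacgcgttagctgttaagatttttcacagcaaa
ABL1, chr9:130768485-130768584: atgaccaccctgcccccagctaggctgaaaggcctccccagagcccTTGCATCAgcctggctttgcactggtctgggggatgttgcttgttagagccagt
RUNX1, chr21:35226528-35226627: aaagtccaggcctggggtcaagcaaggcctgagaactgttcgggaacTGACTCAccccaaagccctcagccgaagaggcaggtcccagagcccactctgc
CRKL, chr22:20886061-20886160: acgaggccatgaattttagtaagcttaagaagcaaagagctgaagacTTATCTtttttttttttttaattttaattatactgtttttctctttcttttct

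The H2A.Zac ratio of the 5432 regions had a median of 12.3 and ran from 3.25 to 143.8, with quartiles of 8.16 and 19.1. The highest H2A.Z ratio among the lost H2A.Z regions they touch had a median of 6.46 and ran from 3.17 to 43.8. The acetylated form thus had the larger ratio in 4911 regions (90.4%), although the antibodies and libraries of the marks differ and the 2 ratios are not on a common scale. Across the 5432 regions the ratios of the marks rose together (Spearman rho 0.59), and both were larger in wider regions (rho 0.50 for H2A.Zac and 0.39 for H2A.Z). These correlations are over regions that share the same libraries and are a description. An H2A.Zac ratio of at least 10 was found in 3406 regions (62.7%), and 774 (14.2%) reached 10 in both marks, counting the highest H2A.Z ratio that a region touched.

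**Figure D1:**
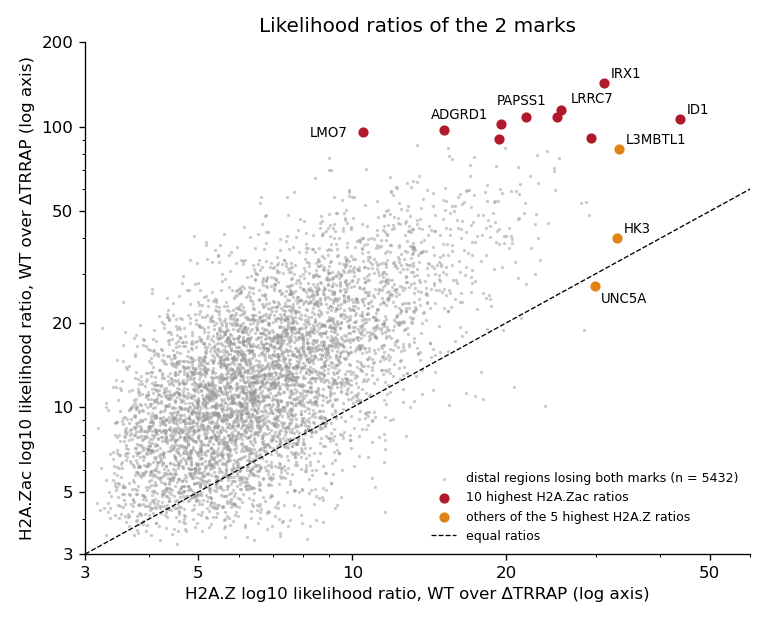
H2A.Zac ratio against H2A.Z ratio for the 5432 distal regions that lost both marks, both as log10 likelihood ratios of WT over ΔTRRAP on log axes, with 1 point per region. The 10 regions with the highest H2A.Zac ratio and the others of the 5 with the highest H2A.Z ratio are colored and most are named by gene, and 90.4% of the regions lie above the dashed line of equal ratios.

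The rule set the lower ends of these ranges. The smallest ratios inside it were 3.25 for H2A.Zac and 3.17 for H2A.Z, whereas the largest ratios in the unchanged lists were 2.90 and 2.77. The smallest covered share inside was 25% and the largest outside 24.98%, with 220 regions inside at 25 to 30% and 170 lost distal regions outside at 20 to 25%. The nearest gene TSS inside was 1001 bp away, and the farthest outside was 1000 bp away.

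Most regions touched a single lost H2A.Z region, and the median width was smaller for H2A.Z than for H2A.Zac. The median width was 1014.5 bp for the H2A.Zac region and 643 bp for the lost H2A.Z region that shares most of it, and their midpoints were a median of 125.5 bp apart. Lost H2A.Z covered a median of 66.4% of the H2A.Zac region, at least 90% in 956 regions and all of it in 370. One lost H2A.Z region was touched by 4738 regions, 2 by 634 and 3 or more by 60. The lost H2A.Z region reached past the end of the H2A.Zac region in 2330 regions (42.9%). In 2434 regions (44.8%) the lost acetylation also reached unchanged H2A.Z, whereas 1 region touched gained H2A.Z. Seen from the other side, 6118 of the 12592 lost H2A.Z regions (48.6%) touched one of the 5432.

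Most of the regions with the highest H2A.Zac ratios lay far from the TSS of a protein-coding gene. Of the 10 highest, 7 were intergenic and 3 intronic, and 7 were more than 50 kb from the TSS of any protein-coding gene. Over all regions with a measured distance to such a TSS, its median was 26.9 kb and its upper quartile 74.7 kb. The region with the highest H2A.Zac ratio, 143.8 for H2A.Zac and 31.1 for H2A.Z, was intergenic, 239.6 kb from the TSS of IRX1, a homeobox transcription factor. The second, at 114.8 and 25.6, was chr1:69822006-69823308 in an intron of LRRC7. The third, at 108.8 and 21.9, was chr4:107578688-107580159, which lies 140.8 kb from PAPSS1, an enzyme that makes the sulfate donor of the cell, and was wholly covered by lost H2A.Z. The region at chr20:31587391-31588703, 17.2 kb from the TSS of ID1, had 106.6 for H2A.Zac and 43.8 for H2A.Z, the highest H2A.Z ratio of all. ID1 is an inhibitor of basic helix-loop-helix factors. The others of the 10 were nearest to IL7, at 108.2, to FAM110B, with 2 regions at 102.0 and 90.5, to ADGRD1, at 97.2, to LMO7, at 96.1, and to XXYLT1, at 91.5. The region near ADGRD1 at chr12:130919814-130921005 was the only one of the 10 with an E-box, and it also held an AP-1 word. That near LMO7 had the lowest H2A.Z ratio of the 10, 10.5.

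By H2A.Z, the highest ratios were found near ID1 and IRX1, as above, and at 3 further places. An intronic region of L3MBTL1, chr20:43514377-43515286, had ratios of 33.2 in H2A.Z and 83.5 in H2A.Zac. L3MBTL1 encodes a reader of methylated histones. An intronic region of HK3, a hexokinase of myeloid cells, had an H2A.Z ratio of 33.0 and an H2A.Zac ratio of 40.2 at chr5:176895142-176896380. An exonic region of UNC5A at chr5:176874095-176874897 was the only one of these 5 where the H2A.Z ratio, 29.8, was above the H2A.Zac ratio, 27.1.

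Most of the regions stood alone, while others lay in groups. No linked share is given for other distal regions, so the groups are a description. When regions no more than 12500 bp apart were linked, 4141 groups formed. Of the 5432 regions, 3300 (60.8%) stood alone and 1004 (18.5%) were in 277 groups of 3 or more. The largest group held 18 regions over 54.1 kb at chr19:50083223-50137369, with no protein-coding gene inside and IZUMO2 26.1 kb away, and their H2A.Zac ratios ran from 7.7 to 32.7. In its span 20 H2A.Zac regions were lost, 0 gained and 1 unchanged. The second, with 9 regions over 39.2 kb at chr19:47906341-47945491 near SULT2A1, held 11 lost regions and none of the other classes. A group of 9 over 60.7 kb at chr3:194183960-194244666 lay 48.4 kb beyond HES1, the Notch target that encodes a repressor, over LINC02036. The last 2 groups held 8 regions each, near CRB2 on chromosome 9 and near DNAJB6 on chromosome 7. No gained H2A.Zac region lay in the span of any of these 5 groups, which were picked for their number of lost regions.

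The surroundings of single regions were also mostly lost or unchanged. Within 10 kb, 65.7% of the 5432 regions had another lost H2A.Zac region and 22.8% a gained one, whereas 18.1% had none of any class. Around regions that gained both marks, 19.7% had a lost region within 10 kb and 51.8% another gained one. Around regions unchanged in both, lost and gained neighbors were about as frequent, at 53.0 and 51.3%. Because the comparison of the lines splits a peak into stretches of different class, the closest neighbors can be parts of the same peak. Within 1 kb, 26.1% of the regions had another lost region, 35.9% an unchanged one and 2.76% a gained one.

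Regions that lost both marks were more often intergenic than distal regions that gained both or were unchanged in both, and as often as those that lost H2A.Zac over unchanged H2A.Z. An intergenic midpoint was found for 50.8% (49.5 to 52.1%), against 36.6% (34.8 to 38.4%) of regions that gained both and 42.8% (42.0 to 43.6%) of those unchanged in both. Among the other lost regions it was 50.2% (48.7 to 51.7%) over unchanged H2A.Z and 42.8% (41.8 to 43.8%) without H2A.Z. An intronic midpoint was found for 41.1% (39.8 to 42.4%), against 55.3% (53.5 to 57.1%) and 48.3% (47.5 to 49.1%). The exonic shares were 8.10, 8.14 and 8.84%. Of the regions with a gene at their midpoint, 1850 lay in a protein-coding gene and 752 in a gene for a long noncoding RNA. The median distance to a gene TSS was 11.2 kb for regions that lost both marks, 15.6 kb for those that gained both and 12.6 kb for those unchanged. The TSS window used 1 start per gene, and 535 regions (9.85%) were within 1 kb of the start of another annotated transcript.

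The sequence of the regions was richer in GC but not in CpG islands. The median GC content was 50%, against 45.1% where both marks were gained, 48.7% where both were unchanged and 47.6% in all TSS-distal H2A.Zac regions. A CpG ratio of at least 0.6 with a GC content of at least 50%, the usual marks of a CpG island, was met by 5.25% (4.68 to 5.87%), against 7.29% (6.39 to 8.31%) of the regions gained in both and 13.4% (12.8 to 13.9%) of those unchanged in both. The other lost regions had a median GC content of 48.6% over unchanged H2A.Z and 48.0% without H2A.Z, and met the CpG criterion in 10.9 and 2.54%.

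The E-box was more frequent in these regions, and the GATA word less frequent, than in the regions that gained both marks. The AP-1 word was also less frequent over all windows, but within classes of GC content, given below, most of its intervals met. CACGTG lay in the 300-bp window of 414 regions, 7.62% (6.95 to 8.36%), against 2.77% (2.23 to 3.45%) of regions gained in both and 5.45% (5.09 to 5.82%) of those unchanged. The GATA word lay in 18.4% (17.4 to 19.5%), against 35.7% (34.0 to 37.5%) and 23.8% (23.1 to 24.5%). The AP-1 word lay in 8.76% (8.04 to 9.54%), against 12.9% (11.8 to 14.2%) and 11.0% (10.5 to 11.5%). Over all TSS-distal H2A.Zac regions the E-box lay in 5.90% of windows, the GATA word in 26.5% and the AP-1 word in 11.4%. In 35116 RefSeq promoters of the same length, 7.26% held the E-box, 16.3% the GATA word and 7.71% the AP-1 word. The E-box was also frequent in other lost regions: it lay in 9.77% of lost H2A.Zac regions that touched no H2A.Z and in 7.95% of those over unchanged H2A.Z. In the same sets the GATA word lay in 22.9 and 23.9%, and the AP-1 word in 9.98 and 8.56%. Few windows held more than one word. GATA and E-box occurred together in 60 windows, and 3644 windows held none of the 4 words.

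**Figure D2:**
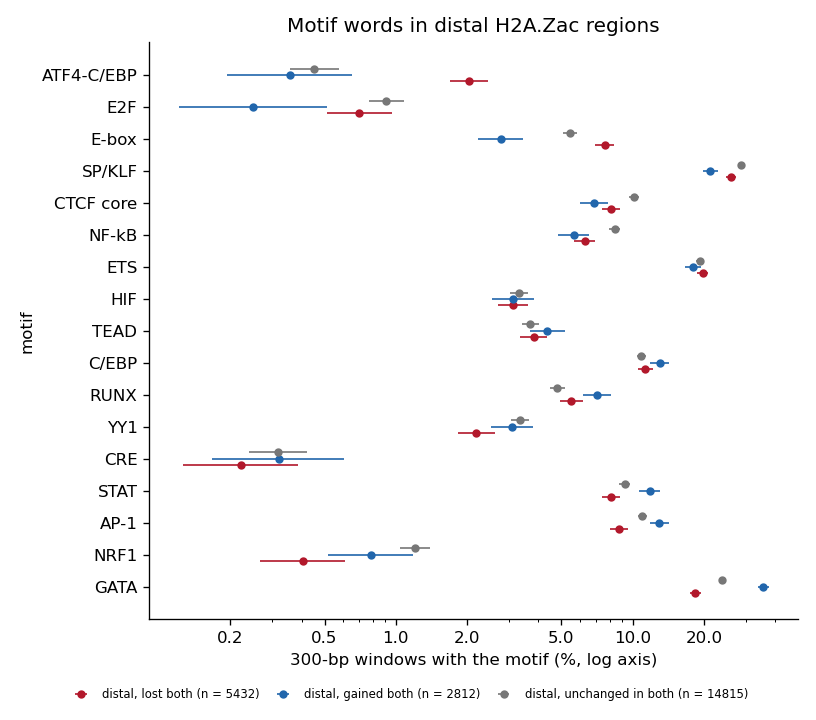
Share of 300-bp windows that hold each motif word on either strand (horizontal log axis, %) in distal regions that lost both marks (5432), gained both (2812) or were unchanged in both (14815), with Wilson 95% confidence intervals as bars, ordered by the ratio of the lost to the gained share. GATA, at 18.4% of lost and 35.7% of gained windows, stands at the bottom and the ATF4-C/EBP and E-box words near the top.

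Words of other factors that contact TRRAP or act in the study's pathways differed less or were rare. The E2F words TTTCCCGC and TTTGGCGC, of the factors that drive entry into S phase, lay in 0.700% of windows (0.510 to 0.959%), against 0.249% (0.121 to 0.513%) of windows gained in both, so that the intervals just meet, and 0.911% of those unchanged. TACGTG, the word of the hypoxia-inducible factors, which shares its last 5 letters with the E-box, was found in 3.13% of lost, 3.13% of gained and 3.31% of unchanged windows. GGGNNTTCC, of NF-kB, was found in 6.30, 5.65 and 8.39%. The words of YY1 (AAGATGGC) and NRF1 (GCGCNTGCG), factors known from promoters, lay in 2.19% (1.83 to 2.62%) and 0.405% (0.268 to 0.612%) of lost windows, below unchanged windows at 3.33% (3.06 to 3.64%) and 1.20% (1.04 to 1.39%), while the intervals of gained windows, with shares of 3.09 and 0.782%, met those of lost ones. The STAT word TTCNNNGAA, the site of factors that the BCR-ABL kinase of K562 activates, lay in 8.10% (7.40 to 8.86%), against 11.8% (10.6 to 13.0%) of gained windows and 9.26% (8.80 to 9.74%) of unchanged windows, whose interval met that of the lost ones. Words for ETS factors (CCGGAAG or CAGGAAG, 19.8 against 18.0%) and for CTCF (CNAGGNGGC, 8.12 against 6.86%) had intervals that met between lost and gained windows, and SP and KLF factors (CCGCCC or CCNCACCC) had 26.1 against 21.3%. Unchanged windows lay above lost ones for CTCF, at 10.1% (9.62 to 10.6%), and for SP and KLF, at 28.6% (27.9 to 29.3%). For ETS they had 19.2%. The C/EBP word TTGCNNAA lay in 11.3% (10.5 to 12.2%) of lost, 13.1% (11.9 to 14.3%) of gained and 10.9% (10.4 to 11.4%) of unchanged windows, and the CRE word TGACGTCA, a site of ATF factors, in 0.221, 0.320 and 0.317%. The RUNX word TGTGGTT lay in 5.52% (4.95 to 6.16%) of lost and 7.08% (6.19 to 8.08%) of gained windows, with intervals apart. Unchanged windows had it in 4.80% (4.47 to 5.16%), an interval that met that of the lost ones. The TEAD word ACATTCC lay in 3.83, 4.37 and 3.70%, with intervals that met. A word is a match of letters and says nothing of whether a factor was bound.

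The E-boxes were densest at the middle of the regions. Their density in the lost regions was 0.3130 per kb in the 100 bp to the right of the window center, against 0.1602 and 0.1325 per kb at the outermost bins, 800 to 900 bp to either side. In unchanged regions it was 0.2140 per kb in the 100 bp to the left of the center against 0.1087 and 0.1201 at the outermost bins, and in regions gained in both 0.1031 per kb just right of the center against 0.1209 and 0.1245. In lost H2A.Zac regions without H2A.Z it reached 0.4100 per kb just right of the center, against 0.1367 and 0.1546 at the outermost bins. GATA words were sparser at the center than at the ends in all of these sets but the gained regions. In the lost regions they dipped to 0.6940 per kb beside the center from 1.0052 and 1.0788 at the outermost bins, whereas in gained regions they reached 1.7212 per kb there against 1.2838 and 1.4865. In unchanged regions they had 0.9490 per kb just right of the center against 1.2163 and 1.1968, and in lost regions without H2A.Z 0.9174 just left of it against 1.1348 and 1.1672.

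**Figure D3:**
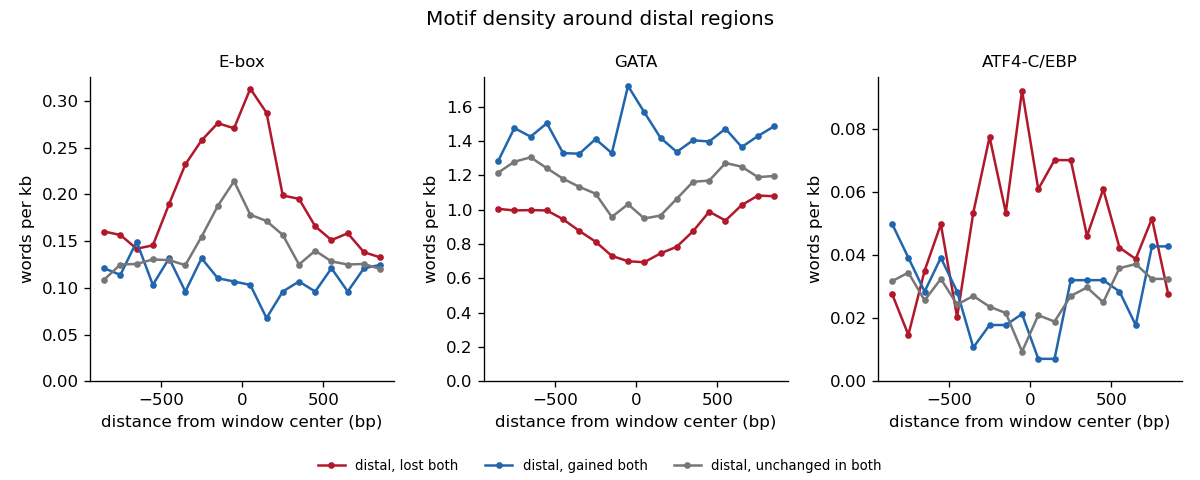
Density of the E-box, GATA and ATF4-C/EBP words (words per kb, both strands, 100-bp bins) against the distance from the window center in bp, for distal regions that lost both marks, gained both or were unchanged in both. The E-box curve of the lost regions peaks at 0.3130 per kb beside the center while that of the gained regions has no peak there, and the GATA curve dips in lost and in unchanged regions and peaks in gained regions.

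Since the E-box has a CpG and the GATA word is rich in A and T, the shares were also read within classes of GC content of the window. The E-box share of lost regions was above that of gained regions in all 6 classes, and the intervals of the 2 sets met in 3 of them, under 40%, at 50 to 55% and at 55 to 60%. In windows with a GC content of 45 to 50%, an E-box was found in 6.36% (5.12 to 7.88%) of lost windows, in 2.66% (1.64 to 4.27%) of gained and in 5.97% (5.18 to 6.88%) of unchanged windows. From 60% upward the shares were 13.1% (11.0 to 15.5%), 3.75% (2.05 to 6.76%) and 8.55% (7.53 to 9.71%). The GATA share of lost regions was below that of gained regions in the 5 classes under 60%, for example 24.0% (21.6 to 26.5%) against 37.7% (33.9 to 41.6%) at 45 to 50%, and at 60% and above it was 4.89 against 4.87%. The GATA intervals of the 2 sets met in 2 classes, at 60% and above and under 40%. Between lost and unchanged regions, the E-box intervals were apart only from 55% upward. The GATA intervals of lost and unchanged regions were apart only at 45 to 50% and at 50 to 55%. In the other classes a difference from unchanged regions beyond the counting error was not shown. The AP-1 share was below that of gained regions in all 6 classes, but the intervals met in 5 of them, for example 10.8% (9.20 to 12.7%) against 15.0% (12.3 to 18.0%) at 45 to 50%, and were apart only at 50 to 55%, so a difference beyond the counting error was not shown within most classes. In windows that shared no 24-base word with another TSS-distal region, a sign of unique sequence, the E-box share was 8.16% of lost, 3.04% of gained and 6.02% of unchanged windows, and the GATA share 19.7, 38.4 and 26.1%.

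**Figure D4:**
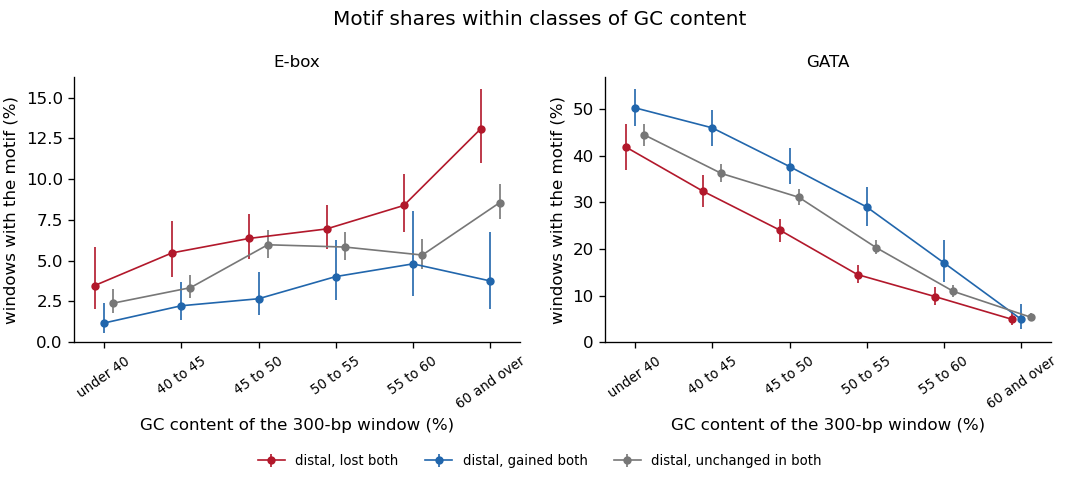
Share of 300-bp windows with the E-box (left) and the GATA word (right), in %, within 6 classes of the GC content of the window, for distal regions that lost both marks, gained both or were unchanged in both, with Wilson 95% confidence intervals. The E-box points of the lost regions lie above those of the gained regions in all 6 classes, with intervals that meet in 3, and the GATA points below them in the 5 classes under 60% GC, with intervals that meet under 40%.

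The 8-letter word that set the lost regions most apart from unchanged ones was TGATGCAA. It came first, by the ratio of shares, among 10643 words compared with at least 50 matching windows, so it was picked for its value and its share is no test. It lay in 111 of the 5432 windows, 2.04% (1.70 to 2.45%), against 0.452% (0.356 to 0.574%) of windows unchanged in both and 0.356% (0.193 to 0.653%) of those gained in both, and in 0.866% of RefSeq promoters. Over all TSS-distal H2A.Zac regions, TGATGCAA lay in 1.44% (1.35 to 1.54%) of windows, closer to the share of the lost regions than the unchanged and gained sets were. Lost H2A.Zac regions without H2A.Z had it more often, at 4.85%, and those over unchanged H2A.Z at 1.58%. ATTGCATC, which overlaps it by 7 letters on the other strand, came second, at 1.22% of lost and 0.371% of unchanged windows. The word was most frequent where the loss of acetylation had the highest ratio. In the quartiles of the H2A.Zac ratio, from low to high, it lay in 0.736, 1.10, 1.40 and 4.93% of windows, the last with an interval of 3.90 to 6.22%. The E-box share was 5.82% (4.69 to 7.19%) in the lowest quartile and 7.95, 8.39 and 8.32% in the others, the GATA share 17.2, 18.2, 18.7 and 19.6%, and the AP-1 share 8.91, 8.69, 8.62 and 8.84%. Only 4 windows held both an E-box and TGATGCAA.

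Chromosomes 19 and 20 held 692 of the 5432 regions, 12.7% (11.9 to 13.7%), against 2.10% of regions that gained both marks and 6.09% of those unchanged in both. As a share of the TSS-distal H2A.Zac regions of a chromosome, regions that lost both marks made up 17.4% (15.9 to 18.9%) on chromosome 19 and 17.5% (15.6 to 19.5%) on chromosome 20. The share was 8.67% over the genome and a median of 7.88% over chromosomes, and the lowest were 4.83% on X, 4.98% on 14 and 5.07% on 13. Within chromosome 20 the share was 22.0% (19.5 to 24.7%) from 30 Mb to the end and 8.44% on the rest. Within chromosome 19 it was 22.7% (20.3 to 25.4%) from 40 Mb to the end and 13.6% on the rest. These stretches, chosen after the values were seen, held 4 and 6 regions that gained both marks. The stretch of chromosome 20 holds the regions near ID1 and GDAP1L1, the one within L3MBTL1 and the strongest one near MRGBP. The stretch of chromosome 19 holds the 2 largest groups and the strongest regions of BLVRB, FOSB, RELB and RUVBL2. DNA copy number was not measured here, and the 2 input libraries of each line were not analysed. Each line was 1 clone, and whether the lines differ in copy number on these stretches was not tested. Without chromosomes 19 and 20, 4740 regions were left, with a median GC content of 49.5%, an E-box in 7.38%, a GATA word in 19.1% and TGATGCAA in 2.19%, while regions gained in both had 45.0, 2.72, 36.1 and 0.327%.

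**Figure D5:**
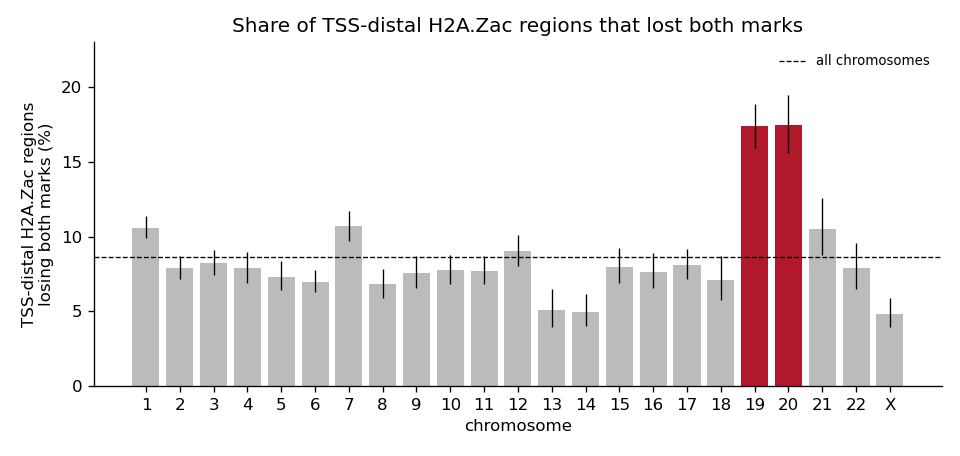
Share of the TSS-distal H2A.Zac regions of each chromosome that lost both marks (vertical axis, %), with Wilson 95% confidence intervals as bars and the share over all chromosomes, 8.67%, as a dashed line. Chromosomes 19 and 20, in red, stand at 17.4 and 17.5%, and the other chromosomes lie between 4.83% (X) and 10.7% (7).

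The promoters nearest to the regions lost acetylation more often than promoters in general, as did those nearest to the other lost distal regions. The 5432 regions had 3220 nearest protein-coding genes. H2A.Zac was lost and none gained within 1 kb of the TSS of 20.5% of these (19.1 to 21.9%), against 10.8% (9.50 to 12.4%) of the 1826 genes nearest to regions that gained both marks, 15.5% (14.6 to 16.3%) of the 6829 nearest to unchanged regions and 12.6% (12.1 to 13.1%) of all 20046 protein-coding genes. It was also 18.1% (16.8 to 19.6%) of genes nearest to regions that lost H2A.Zac over unchanged H2A.Z and 17.7% (16.7 to 18.8%) of those nearest to lost regions without H2A.Z. The reverse state, H2A.Zac gained and none lost, was nevertheless more frequent at the promoters nearest to lost regions, at 25.8% (24.3 to 27.3%). It was found at 30.9% (28.9 to 33.1%) of promoters nearest to regions that gained both and at 30.4% of all. Without chromosomes 19 and 20, promoters nearest to lost regions had lost H2A.Zac in 18.9% and gained it in 27.2%. The nearest gene need not be the gene a distal region acts on.

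A region that lost both marks lay inside or within 50 kb of the TSS of 5452 of 20046 protein-coding genes, 27.2%, and a region that gained both near 12.0%. Genes with any TSS-distal H2A.Zac region nearby were not counted. Whether the shares of the lists follow the number of such regions was therefore not tested. Against this background of all genes, 9 of 20 erythroid and stem cell transcription factors had a region that lost both (45%), and 10 of the 20 (50%) had a region that gained both. The strongest were upstream of ZFPM1, the GATA cofactor, where chr16:88430142-88431494 had a ratio of 33.8 for H2A.Zac and 8.1 for H2A.Z, and within RUNX1, a regulator of blood stem cells, where the highest was at 31.0. RUNX1 is annotated over 1216.9 kb, and only its outermost annotated start was used as its TSS, not its other starts. The gene had 11 regions that lost both marks among 90 TSS-distal H2A.Zac regions, and the highest lay 778.0 kb downstream of that outermost start. LMO2, KLF1, MYB, SPI1, ETV6, GFI1B and IKZF1 had 1 or 2 each, with highest ratios between 6.0 and 23.4. Of these 9 genes, 7 also had a region that gained both marks. Promoters were read at the outermost annotated start of each gene alone. There, 6 of the 9 (ZFPM1, LMO2, MYB, SPI1, ETV6 and GFI1B) had gained and not lost H2A.Zac, RUNX1 and IKZF1 had lost it, and KLF1 was unchanged. Of 29 globin, heme and red cell genes, 8 had one (27.6%), among them TFRC with 4, BLVRB, which reduces biliverdin, with 3, and ANK1, which anchors the red cell skeleton. Among 11 megakaryocyte genes there were 3 (27.3%): GP9, ITGB3 and GP1BB. A region that gained both marks lay near 6 of the 29 (20.7%) and 1 of the 11 (9.09%).

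The genes of early response factors had lost regions nearby in 12 of 24 cases (50%), against 27.2% of all genes, and regions that gained both marks in 13 of 24 (54.2%), against 12.0% of all genes. It is the list with the shortest genes. FOS had 2, up to 30.5, 20.6 kb downstream of its TSS. FOSB had 5, up to 26.5, and JUNB, FOSL1 and DUSP1 had 3 or 4. For the genes of JAK-STAT and BCR-ABL signaling, 8 of 22 (36.4%) had one and 3 a gained region. ABL1, the kinase gene fused to BCR in K562, held 2 in or near it, the higher with ratios of 45.4 and 24.2 in an intron 55.5 kb downstream of its TSS. CCND1, which encodes cyclin D1, had 1 region of 13.3 at 2.14 kb upstream of its TSS. SOCS1 and SOCS3, feedback inhibitors of the pathway, had 2 each, and BCR, CRKL, OSM and PIM3 had 1 each.

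In the MYC and E2F network the share was 7 of 23 (30.4%), near the background. E2F2, E2F3, E2F4, MYCL, MXD1, MLX and RB1 had 1 region each, the highest 19.3 near MXD1, which competes with MYC for MAX. A region that gained both marks lay near 5 of the 23 genes (21.7%), and 3 of the 7 had both kinds. None of these 7 genes had an E-box in its strongest region. Over all 5432 regions the E-box share was 7.62%, so with 7 genes its absence is no result about the list. Of 22 genes of the HIF and NF-kB pathways, 8 had one (36.4%), among them TNFAIP3 at 21.0, RELB at 18.9, VEGFA at 7.0 with an E-box, and RELA, whose strongest region, chr11:65679532-65681194, also lies near KAT5. Of 18 genes of TIP60 subunits, 6 had one (33.3%). KAT5, the acetyltransferase, had 3, up to 28.2, MRGBP 4, up to 30.3, and MEAF6, BRD8, RUVBL2 and EP400 itself 1 each. Regions that gained both marks lay near 4 of the 22 HIF and NF-kB genes (18.2%) and 2 of the 18 subunit genes (11.1%). The region within EP400, at chr12:132077347-132077691, had 13.3 for H2A.Zac and 8.7 for H2A.Z and lay in an exon 127.6 kb from the TSS. The lists hold 11 to 29 genes, so a single gene moves a share by 3 percentage points or more, and genes in dense neighborhoods share regions. Over all 8 lists, 61 genes had a lost region nearby, and H2A.Zac at the promoter was gained and not lost in 28 of them (45.9%), FOS, JUNB, DUSP1 and ABL1 among them, and lost and not gained in 12 (19.7%), against 29.6% and 19.4% of all 5452 genes with such a region. No H2A.Zac region of any class lay at the promoter of 11.5% of the 61 genes, against 29.2% of the 5452. The gained and lost shares are thus not over promoters that held a region equally often.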

How the data were processed

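The authors aligned reads to hg38 with Bowtie2 2.4.5, merged replicates, compared WT with ΔTRRAP by MACS2 2.2.7.1 bdgdiff (fragment extension 191 bp, minimum length 250 bp, maximum gap 150 bp, cutoff 3) and kept regions with at least 25% of their length in reproducible peaks (IDR up to 0.05). deepTools 3.5.1 and bedtools 2.30.0 are also listed in the submitters' processing notes. The deposited score, the only value in each list, is the authors' log10 likelihood ratio of their own comparison; with no other measurement in the lists, it was used to rank and describe regions, and no test was run.

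Gene starts, exons and gene types came from GENCODE release 44 (the study used release 32). Coverage, distances, GC content and words were computed from hg38 with Python 3.11.15, numpy 2.4.6, pandas 2.3.3, scipy 1.17.1 and pysam 0.24.0, with bedtools 2.31.1 as a check, and were tested on simulated data. Promoters were the RefSeq windows of 250 bp before and 50 bp after each gene's start. The 19 regions on unplaced contigs were kept. For regions gained in both marks or unchanged in both, the window was centered in the same way; for lost regions without H2A.Z it was the middle of the H2A.Zac region.

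The regions, lists and words were chosen with earlier results of these data known. Named are the 10 regions with the highest H2A.Zac ratio, the 5 with the highest H2A.Z ratio, the 5 largest groups of regions linked within 12.5 kb, and genes of fixed lists with a region inside or within 50 kb of the TSS; TGATGCAA, the 24-base check and the stretches of chromosomes 19 and 20 were chosen after the values were seen. The alternatives tried were other overlaps, ratio cutoffs, TSS windows, merging, omitted chromosomes and motif windows. Depth is unknown, and with it the precision of each region. Input libraries, expression and enhancer annotations were not analysed here. A few items withheld for evaluations are not reported here.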

Additional observations from a re-analysis of the deposited data

How the results depend on the processing

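No paired analysis was possible because the replicates were merged in the lists and no result comes from a test. For the same reason no replicate could be left out. Of 280 alternative values of 9 results, 251 stayed within 1.5 times the count or within the interval of the value reported. This total is no measure of robustness. For most results 23 of the alternatives left out 1 chromosome, which keeps most of the same regions. For the share of lost distal H2A.Zac regions that also lost H2A.Z, 8 of 32 alternatives moved, and only 2 of these left out 1 chromosome. With each of 23 chromosomes left out in turn, the intronic share ran from 40.6 to 41.6%, the GATA share from 18.1 to 19.1%, the AP-1 share from 8.51 to 8.95%, the E-box share from 7.37 to 7.78% and the TGATGCAA share from 1.96 to 2.12%. The share of lost distal H2A.Zac regions that also lost H2A.Z, 28.3%, was 30.5% with an overlap of 1 bp, 20.6% with 50%, 25.1% with ratios of at least 5 in both marks, 9.60% with at least 10, 31.0% with regions within 1 kb merged, 27.1% without chromosomes 19 and 20, 27.5% without chromosome 19 and 27.7% without chromosome 1. At ratios of at least 10 the number of regions was 745, because fewer regions pass when 25% of the length must be covered by H2A.Z regions that themselves reach 10, with an intronic share of 45.2%, a GATA share of 16.8%, a TGATGCAA share of 3.09% and 17.3% on chromosomes 19 and 20. With every transcript start in the TSS window the intronic share was 38.6% and the median GC content 49.6%. The median GC content was 50.2% with an overlap of 50%, 49.5% without chromosomes 19 and 20 and 49.6% without chromosome 19. The motif shares follow the width of the window: with 200 bp they were 12.4% for GATA and 5.78% for AP-1, and with 500 bp 29.0% and 13.7%. In regions gained in both they were 26.5 and 8.68% with 200 bp and 49.1 and 19.7% with 500 bp, and the E-box share was 5.38% of lost and 2.06% of gained windows with 200 bp and 12.3 and 4.77% with 500 bp. The GATA share was 19.7% with the window at the middle of the H2A.Zac region and also 19.7% without windows sharing a 24-base word, a check chosen after seeing the data, as were all alternatives for the E-box and TGATGCAA. The TGATGCAA share was 1.42% with 200 bp, 3.44% with 500 bp and 2.63% at the middle of the H2A.Zac region. The direction of the difference between lost and gained regions was the same in each of these windows for all 4 words.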
